A study of Mus musculus with 6 samples.

Results

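The hypoxia pathway was described here through 10 genes in ventricles of mice on western diet (WD) that received Tributyrin or vehicle: the prolyl hydroxylases *Egln3*, *Egln1* and *Egln2*, the HIF alpha subunits *Hif1a*, *Epas1* and *Hif3a*, the ubiquitin ligase subunit *Vhl*, and the HIF targets *Vegfa*, *Adm* and *Car9*. They are 10 of 54232 genes in the count tables, and 9 of them had enough counts to be tested (*Car9* did not). *Egln3* was chosen by its higher count with Tributyrin in these same libraries, and the rest as known parts of its pathway, so the *Egln3* values are given as a description, and the question was whether other HIF targets were higher along with it. Male and female C57BL/6J wild type mice were used in the study, and the labels give no sex or age for these animals. All mice, controls included, were fed WD for 15 weeks and then needle-fed for 3 weeks, with dosing days alternating with days off. The WD + Tributyrin mice (n = 3) received Tributyrin, a triglyceride of butyrate, at 5 g/kg body weight, and the WD mice (n = 3) received vehicle, which the labels name PBS. No group on normal chow was analysed here, so the values compare treatment within an obesogenic diet only.

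Cells sense oxygen through enzymes that hydroxylate prolines of the HIF alpha subunits. When oxygen is present, the hydroxylated subunit is bound by the VHL protein, joined to ubiquitin and degraded. When oxygen is low, the alpha subunit escapes, pairs with ARNT and binds a short DNA element at genes for angiogenesis, glycolysis, pH control and mitochondrial turnover. *Egln3* and *Egln1* are themselves HIF targets and form a negative feedback loop, and in heart muscle *Egln1* is regarded as the main oxygen sensor. HIF activity is set largely at the protein level, and RNA counts measure only the transcripts.

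The libraries held 20369746 to 32734485 counts on genes. Values below are in CPM, read counts brought to one library size after TMM scaling, and fold changes are log2 of WD + Tributyrin over WD from edgeR's fit across 14133 genes. In that fit 0 genes (0%) passed an FDR of 10% (Benjamini-Hochberg, from the quasi-likelihood test of edgeR), 600 (4.25%) had an unadjusted p under 0.05, and limma-voom called 0 genes. DESeq2, run on 25581 genes without the filter on low counts, called 11. With library size alone in place of TMM scaling, the median of all genes moved from -0.0013 to -0.074 on the log2 scale, and counts of genes higher are given on both scales where they differ. The 6 cardiomyocyte markers summed to 50944 to 52255 CPM with vehicle and 48943 to 53230 CPM with Tributyrin. This matches heart muscle, but the sum does not separate ventricle from atrium. The 5 atrial markers summed to 182, 172 and 53.8 CPM with vehicle and to 31.04, 64.4 and 46.3 CPM with Tributyrin, so vehicle replicates 1 and 2 stood apart from the other 4 libraries. All 6 libraries carried Y-linked counts (3309 to 5249) and at most 6 counts of *Xist*, the pattern of male mice.

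*Egln3* (ENSMUSG00000035105) encodes a HIF prolyl hydroxylase that is strongly hypoxia inducible. It lies on the minus strand of GRCm38, chr12:54178981-54203860, with 2662 bases of exon. Its level was 115.0, 89.99 and 100.4 CPM in the vehicle mice and 153.3, 150.0 and 120.7 CPM in the Tributyrin mice. Every Tributyrin mouse lay above every vehicle mouse, with Tributyrin replicate 3 closest to the vehicle range. The vehicle mean was 101.8 ± 12.5 CPM (SD, n = 3). The Tributyrin mean was 141.3 ± 18.0 CPM (SD, n = 3), 38.9% higher. The log2 fold change was 0.47 (standard error 0.11, 95% interval 0.23 to 0.72), a value that choosing the gene on these libraries tends to inflate, and 2.32% of all genes tested had a value at least as high. The groups also stayed apart on DESeq2-type size factors, but with library size alone they overlapped, since the highest vehicle value was 114.97 CPM and the lowest Tributyrin value 113.96 CPM.

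The promoter of *Egln3* is shown because HIF binds sites built on the core ACGTG, or less often GCGTG. The windows below are the 250 bases before the RefSeq transcription start (GRCm38.p6), written 5′ to 3′ along the gene, with either core on either strand in capitals. The *Egln3* window, chr12:54203875-54204124 on the minus strand, held 1 ACGTG, 229 to 225 bases before the start, and no GCGTG. A core is a description of the letters and not a bound site. RefSeq starts can differ from the gene positions given here, which come from GENCODE. The windows of *Egln1*, *Vhl* and *Car9* reach into the GENCODE gene, and that of *Hif1a* lies within it.
Egln3: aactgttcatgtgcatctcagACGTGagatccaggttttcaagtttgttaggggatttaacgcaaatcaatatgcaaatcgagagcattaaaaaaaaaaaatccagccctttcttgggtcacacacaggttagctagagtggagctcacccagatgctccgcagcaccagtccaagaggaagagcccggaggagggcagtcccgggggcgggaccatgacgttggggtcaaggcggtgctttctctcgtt

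Other values moved with the difference in *Egln3*. All 5 atrial markers were lower with Tributyrin, and *Egln3* was at a log2 fold change of 0.51 once the atrial score entered the fit. Against vehicle replicate 3 alone, the vehicle library with the lowest sum of atrial markers, *Egln3* was at 0.49. The atrial marker *Nppa* was nevertheless highest in that library, at 39.8 CPM. All 6 smooth muscle and pericyte markers were higher with Tributyrin (4 of 6 with library size alone; summed level 1092 to 1128 CPM with vehicle and 1116 to 1271 CPM with Tributyrin), led by *Myh11*, and all 5 macrophage markers were lower (97.2 to 125 CPM and 88.7 to 116 CPM). Mitochondrial transcripts took 23.6% to 26.5% of counts with vehicle and 25.9% to 28.8% with Tributyrin, and with this share as a covariate *Egln3* was at 0.43. Of the 6 fibroblast markers 4 were lower with Tributyrin (6 with library size alone), with a median log2 fold change of -0.16, led by *Postn* (-0.53) and *Col1a1* (-0.46), and their sum was 701 to 776 CPM with vehicle and 635 to 778 CPM with Tributyrin. The summed levels of all lists overlapped between the groups, and adipocyte markers were near 0 (at most 2.48 CPM in sum, with *Adipoq* and *Lep* at 0 in some libraries). With so few mice per group, the covariate fits cannot separate the atrial score or the mitochondrial share from treatment. The part of these and of the cardiomyocyte, smooth muscle, macrophage and fibroblast lists in the *Egln3* difference was not tested. In bulk tissue, a larger number of cells of one type and more RNA per cell cannot be told apart.

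**Figure D1:**
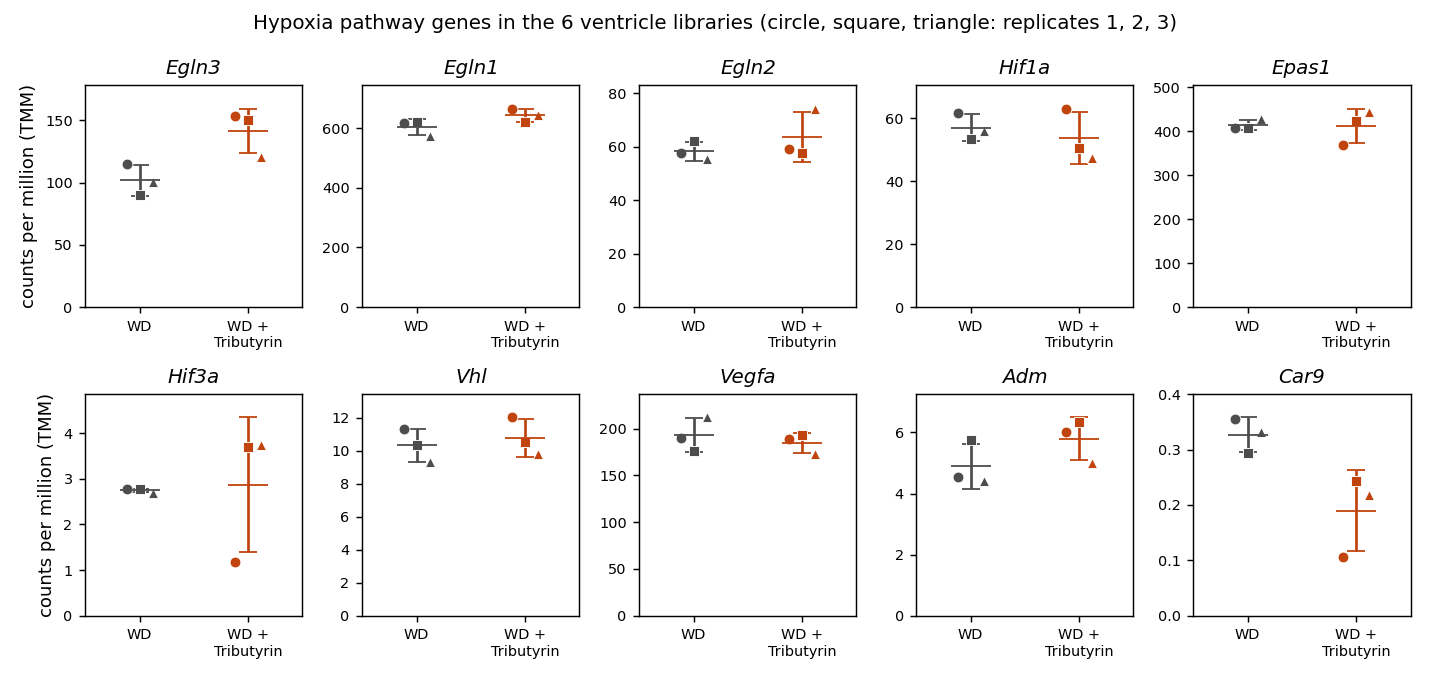
Level of each of the 10 hypoxia pathway genes in CPM on TMM-scaled library sizes (vertical axes, each from 0) in WD mice (grey) and WD + Tributyrin mice (orange); points are single mice, and the horizontal line and bars are the mean and SD of 3. *Egln3* separates the groups (89.99 to 115.0 against 120.7 to 153.3), *Hif3a* spreads widely with Tributyrin, and the other tested genes overlap or, for *Egln1*, nearly touch.

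*Egln1* (ENSMUSG00000031987, chr8:124908587-124949324, minus strand) encodes the hydroxylase with the highest transcript level here. It was at 617.0, 620.2 and 572.4 CPM with vehicle and 664.0, 620.6 and 644.5 CPM with Tributyrin. The groups were separated only by the gap between 620.18 CPM in vehicle replicate 2 and 620.63 CPM in Tributyrin replicate 2, and with DESeq2-type size factors or library size alone they overlapped. Among all genes tested, 4.34% had groups that did not overlap with Tributyrin higher. The log2 fold change was 0.09 (standard error 0.068, 95% interval -0.06 to 0.24), and 0.0196 with library size alone, and the adjusted p was 0.999 by edgeR (Benjamini-Hochberg over all genes tested).

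*Egln2* (ENSMUSG00000058709, chr7:27158658-27166802, minus strand) encodes a largely nuclear hydroxylase that is not hypoxia inducible. It was at 57.6, 62.1 and 55.3 CPM with vehicle and 59.2, 57.5 and 74.3 CPM with Tributyrin. The groups overlapped, and Tributyrin replicate 3 alone lay above the vehicle range. The log2 fold change was 0.12 (standard error 0.10, 95% interval -0.10 to 0.35) with an adjusted p of 0.999 by edgeR. An exon of *Cyp2t4* overlaps it on the opposite strand. Since the strand setting of the counting is not given, it is not known how reads in the shared stretch were counted. Of the other oxygen-dependent hydroxylases, the asparaginyl hydroxylase gene *Hif1an*, whose product blocks the HIF transactivation domain, was at a log2 fold change of -0.05 and the transmembrane hydroxylase gene *P4htm* was at 0.08 (0.0031 with library size alone). Of the 4 hydroxylases other than *Egln3*, 0 passed an FDR of 10% in edgeR (0% of all genes tested). None had an unadjusted p under 0.05, where 4.25% of all genes tested did, so few are awaited among 4 genes. Whether any of them differed from *Egln3* in its response was not tested.

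The promoter windows of the sister genes are shown to set their letters beside those of *Egln3*. *Egln1* held 1 GCGTG and 1 ACGTG, the latter 68 to 64 bases before the start and drawn here with its flanks (chr8:124949308-124949332). *Egln2* held 1 ACGTG and 3 GCGTG, of which 1 lies on the reverse strand (chr7:27166803-27167052). All 3 hydroxylase promoters thus hold at least 1 ACGTG, which 16.6% of all 32851 windows of this length hold.
Egln1: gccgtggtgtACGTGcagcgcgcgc
Egln2: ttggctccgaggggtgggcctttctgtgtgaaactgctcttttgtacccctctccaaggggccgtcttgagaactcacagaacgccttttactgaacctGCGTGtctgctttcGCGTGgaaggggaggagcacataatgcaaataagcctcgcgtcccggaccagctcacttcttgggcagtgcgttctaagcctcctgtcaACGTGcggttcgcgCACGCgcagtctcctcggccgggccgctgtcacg

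Levels of different genes were compared per kilobase of exon, and then the *Egln* genes were set against each other. Of the summed CPM per kb of the 3 genes, *Egln3* made up 18.3%, 14.8% and 17.4% in the vehicle mice and 21.9%, 22.6% and 18.0% in the Tributyrin mice. The *Egln3* shares of the groups overlapped, because vehicle replicate 1 lay above Tributyrin replicate 3. The *Egln1* share averaged 74.0% ± 1.36 (SD, n = 3) for vehicle, against 70.2% ± 1.10 (SD, n = 3) for Tributyrin, and the groups did not overlap. These shares contain *Egln3*, so they describe the same difference and add no support to it. The sum itself was 235.4, 228.5 and 216.7 CPM per kb with vehicle and 263.5, 249.6 and 251.2 CPM per kb with Tributyrin, with most of it from *Egln1* in each mouse.

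**Figure D2:**
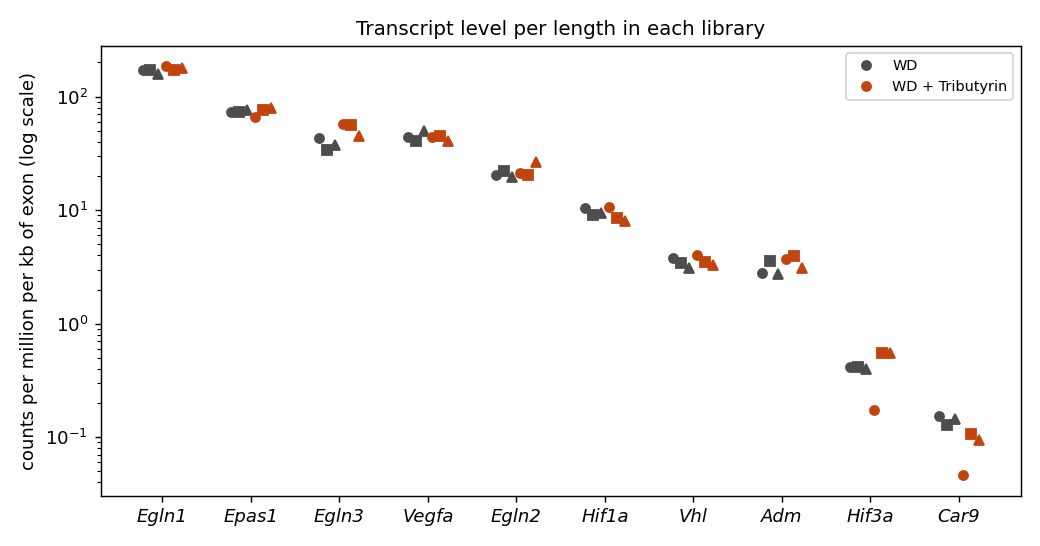
Level of each gene in CPM per kilobase of exon (vertical log axis) in each library, with genes ordered by their mean; grey is WD, orange is WD + Tributyrin, and circle, square and triangle are replicates 1, 2 and 3. *Egln1* is highest (mean 173.4) and *Car9* lowest (mean 0.112), and *Egln3* shares its range with *Vegfa*.

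Per kilobase of exon and over all 6 libraries, *Egln1* had a mean of 173.4 CPM per kb, followed by *Epas1* at 73.9, *Egln3* at 45.7, *Vegfa* at 44.1, *Egln2* at 21.8, *Hif1a* at 9.38, *Vhl* at 3.52, *Adm* at 3.30, *Hif3a* at 0.418 and *Car9* at 0.112 CPM per kb. Neighbours in this order did not overlap in range over the libraries, other than *Egln3* with *Vegfa* and *Vhl* with *Adm*. The order of *Egln3* and *Vegfa* differed by group, with means of 38.2 and 44.97 CPM per kb in the vehicle mice and 53.1 and 43.1 CPM per kb in the Tributyrin mice. The 3 Tributyrin mice placed *Egln3* at 45.3 to 57.6 CPM per kb, and the vehicle mice at 33.8 to 43.2 CPM per kb.

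The HIF alpha subunits are the substrates of the *Egln* enzymes. *Epas1* (ENSMUSG00000024140, chr17:86753700-86833410, plus strand), prominent in endothelial cells, was at 407.4, 408.3 and 427.3 CPM with vehicle and 368.4, 423.0 and 444.6 CPM with Tributyrin. The Tributyrin mice lay on both sides of the vehicle range, and the log2 fold change was -0.0083 (95% interval -0.19 to 0.17). *Hif1a* (ENSMUSG00000021109, chr12:73901375-73947530, plus strand), the broadly expressed subunit, was at 61.6, 53.3 and 56.0 CPM with vehicle and 63.0, 50.4 and 47.4 CPM with Tributyrin. These groups overlapped too, with a log2 fold change of -0.09 (95% interval -0.33 to 0.16), and other annotated transcripts overlap *Hif1a* on both strands. Both genes had an adjusted p of 0.999 by edgeR.

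*Hif3a* (ENSMUSG00000004328, chr7:17031507-17062427, minus strand), of which some isoforms act as inhibitors of the other subunits, had few reads. Its counts were 70, 94 and 57 with vehicle and 33, 106 and 86 with Tributyrin, or 2.77, 2.77 and 2.70 CPM against 1.17, 3.70 and 3.74 CPM. The vehicle mice agreed closely (coefficient of variation 1.49%), while Tributyrin replicate 1 was far below and the other two above them (coefficient of variation 51.2%). The log2 fold change was 0.06 (standard error 0.35, 95% interval -0.72 to 0.83, and -0.0175 with library size alone), an interval that holds large increases and decreases. Without Tributyrin replicate 1 it was 0.442, and without Tributyrin replicate 2 it was -0.186, so single libraries set its sign. Of the alpha subunit transcripts per kb, *Epas1* made up 88.0% with vehicle and 88.4% with Tributyrin, *Hif1a* 11.5% and 11.05%, and *Hif3a* 0.486% and 0.504%. The partner subunit *Arnt* was at a log2 fold change of 0.02 (-0.05 with library size alone), and *Arnt2* had 4 to 22 counts and was not tested.

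*Vhl* (ENSMUSG00000033933, chr6:113623959-113631633, plus strand) encodes the protein that recognises hydroxylated HIF. It was at 11.3, 10.3 and 9.32 CPM with vehicle and 12.03, 10.5 and 9.79 CPM with Tributyrin. The groups overlapped, and replicate 1 was highest in each. Its log2 fold change was 0.06 (standard error 0.12, 95% interval -0.21 to 0.33, adjusted p 0.999 by edgeR) and -0.0084 with library size alone. The other subunits of its ligase ran from *Cul2*, the cullin scaffold, at -0.0082 to *Elob*, an elongin adaptor, at 0.10. Of the 5 ligase genes 4 were higher, but 1 with library size alone. All 5 had 95% intervals that spanned 0.

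A further 10 regulators of the pathway were read in the same way. They include the *Siah* ubiquitin ligases, which act on the Egln proteins, the coactivators *Crebbp* and *Ep300*, and *Mtor*. Of these 10 genes, 4 were higher and 6 lower (3 and 7 with library size alone), with a median log2 fold change of -0.0095. They ran from *Mtor* at -0.08 to *Siah2* at 0.14, and the groups of 1 gene did not overlap, *Os9*, at 0.06 (-0.02 with library size alone), where 8.94% of all genes tested had groups apart in either direction. None of the 10 reached an unadjusted p under 0.05 in edgeR, where 4.25% of all genes tested did.

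**Figure D3:**
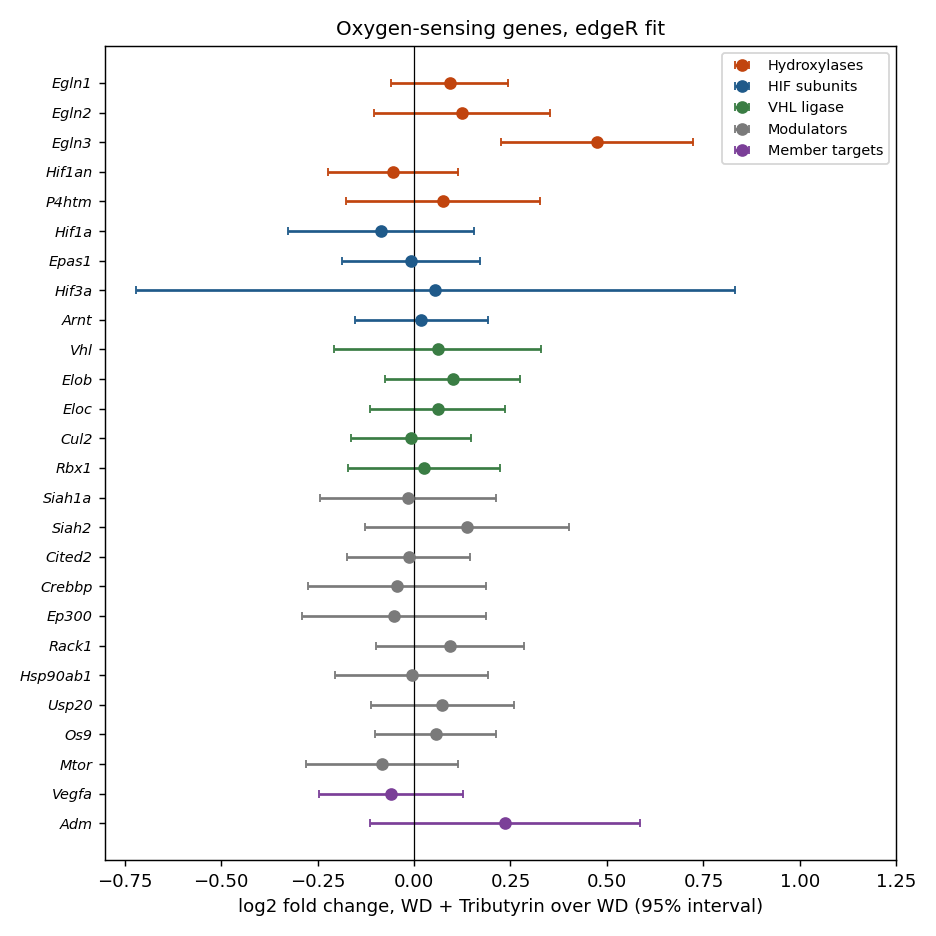
Log2 fold change of WD + Tributyrin over WD (horizontal axis) with 95% interval from edgeR's fit for the tested hydroxylases, HIF subunits, VHL ligase subunits, pathway modulators and the member targets *Vegfa* and *Adm*; the vertical line is 0. *Egln3* was chosen for its difference and its interval is drawn as a description, and all other intervals in the plot span 0, with that of *Hif3a* the widest.

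Of the classical targets, *Vegfa* (ENSMUSG00000023951, chr17:46016993-46032369, minus strand) encodes the growth factor of endothelial cells. It was at 190.3, 175.9 and 211.9 CPM with vehicle and 188.4, 193.1 and 173.0 CPM with Tributyrin. The groups overlapped, and the highest and the lowest value were vehicle replicate 3 and Tributyrin replicate 3. The log2 fold change was -0.06 (standard error 0.084, 95% interval -0.25 to 0.13, adjusted p 0.999 by edgeR).

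*Adm* (ENSMUSG00000030790, chr7:110627661-110629820, plus strand) encodes adrenomedullin, a vasodilator peptide. It was at 4.54, 5.74 and 4.40 CPM with vehicle and 6.02, 6.35 and 5.005 CPM with Tributyrin. The group ranges overlapped because vehicle replicate 2 lay above Tributyrin replicate 3. For *Adm* the log2 fold change was 0.24 (standard error 0.16, 95% interval -0.11 to 0.58, adjusted p 0.999 by edgeR), an interval that spanned 0. That interval also held 0.47, the log2 fold change of *Egln3*.

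*Car9* (ENSMUSG00000028463, chr4:43506966-43513729, plus strand), the membrane carbonic anhydrase often used as a hypoxia marker in tumours, was barely counted. There were 9, 10 and 7 reads with vehicle and 3, 7 and 5 with Tributyrin, or 0.295 to 0.356 CPM and 0.107 to 0.244 CPM. The Tributyrin mice lay below the vehicle mice, the direction opposite to that of *Egln3*, where 4.61% of the tested genes had groups apart in that direction. It was removed by the low-count filter. Without the filter, edgeR gave a log2 fold change of -0.77 (95% interval -2.07 to 0.53, adjusted p 0.871), an interval that also holds increases. *Gm12454* overlaps *Car9* on the opposite strand.

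The promoters of the latter 2 targets are shown because each holds a core near its start. *Car9* held 1 ACGTG on the reverse strand, 18 to 14 bases before the start, drawn with its flanks (chr4:43506998-43507022). *Adm* held 2 GCGTG on the reverse strand and no ACGTG (chr7:110627407-110627656). The windows of *Vhl* and *Vegfa* held neither core within these 250 bases, *Hif1a* held 3 ACGTG, with a pair of them overlapping in 1 CACGTG (the E-box), *Hif3a* held 2 GCGTG, and *Epas1* had no window.
Car9: atttccgatgCACGTacagcccgtc
Adm: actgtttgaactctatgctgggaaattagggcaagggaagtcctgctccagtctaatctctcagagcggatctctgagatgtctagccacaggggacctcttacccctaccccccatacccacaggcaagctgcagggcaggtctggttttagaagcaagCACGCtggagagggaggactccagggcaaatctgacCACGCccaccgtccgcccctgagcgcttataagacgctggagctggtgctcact

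Across the 10 genes, 8 tested genes remain when *Egln3* is left out. Of these, 5 were higher and 3 lower with Tributyrin (3 and 5 with library size alone, where *Hif3a* and *Vhl* turned lower), with a median log2 fold change of 0.06, while 49.6% of all genes tested were higher and their median was -0.0013. At an FDR of 10%, 0 of the 8 passed in edgeR, and 0 had an unadjusted p under 0.05 in either direction, where 1.97% of all genes did with Tributyrin higher and 2.28% with Tributyrin lower. Groups did not overlap for 1 of the 8, *Egln1*, against 8.94% of all genes in either direction.

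The wider set of HIF targets held 69 genes other than *Egln3*, of which 65 were tested. With Tributyrin 34 were higher and 31 lower, or 52.3% higher against 49.6% of all genes tested. With library size alone 18 were higher, 27.7% against 27.5% of all genes tested. Their median log2 fold change was 0.014, and 39 of the 65 lay within 0.1 of 0 on the log2 scale. None passed an FDR of 10% in edgeR (0% of all genes), limma-voom or DESeq2. Without the low-count filter edgeR called 2 of 68 targets, *Angptl4* and *Loxl2*, and 167 of 25581 genes in all. In that fit the prior degrees of freedom were infinite, so a gene's own spread between mice carried no weight. At an unadjusted p under 0.05 there were 0 higher (1.97% of all genes tested) and 3 lower (2.28% of all genes tested), *Apln*, *Bhlhe41* and *Loxl2*, together 4.62% of the targets. Groups did not overlap for 4 targets with Tributyrin higher (6.15%, against 4.34% of all genes tested) and for 2 with Tributyrin lower (3.08%, against 4.61%).

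**Figure D4:**
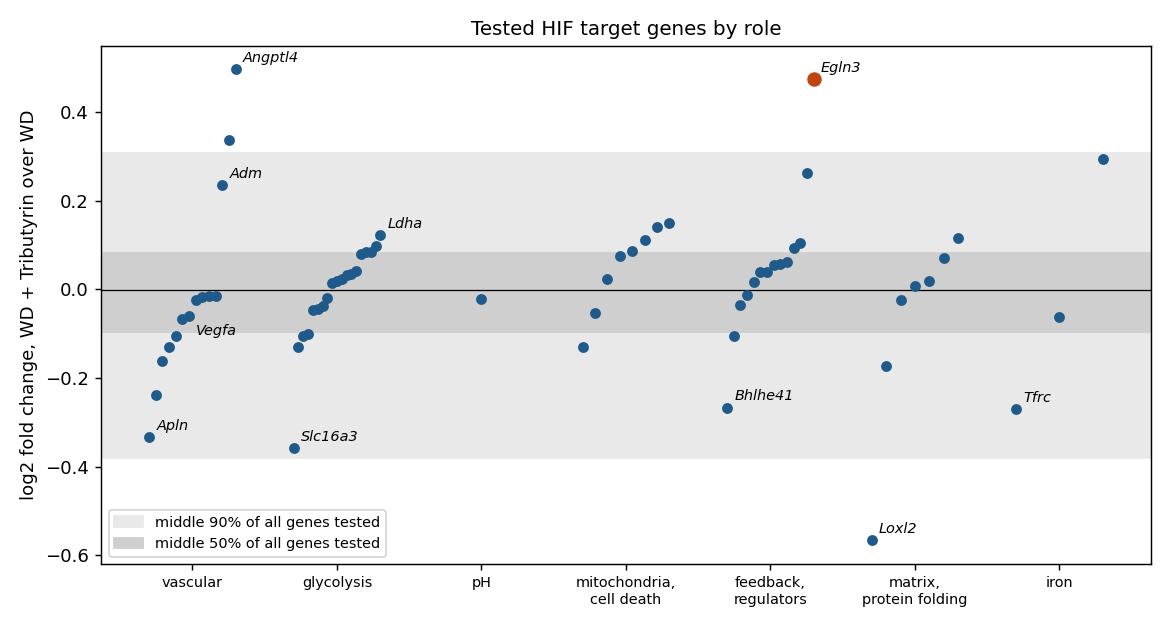
Log2 fold change of WD + Tributyrin over WD (vertical axis) of every tested HIF target, sorted within its role (horizontal axis); grey bands hold the middle 50% and 90% of all genes tested, and *Egln3* is in orange. The targets lie on both sides of 0, and besides *Egln3* only *Angptl4*, *Angpt2* and *Loxl2* lie outside the wider band.

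Among the vascular targets, 14 of 15 were tested (*Epo* had 0 counts), 3 were higher and 11 lower, and the median log2 fold change was -0.04. *Angptl4*, a lipoprotein lipase inhibitor that is also induced through PPAR receptors, was highest at 0.50 (standard error 0.23, 95% interval -0.0063 to 0.998). Its level was 6.40, 10.5 and 6.62 CPM with vehicle and 11.2, 8.30 and 14.2 CPM with Tributyrin, so the groups overlapped through vehicle replicate 2 and Tributyrin replicate 2. *Apln*, which encodes the peptide apelin, was lowest at -0.33 (95% interval -0.64 to -0.03). It was at 8.77, 11.1 and 11.2 CPM with vehicle and 7.90, 9.34 and 7.35 CPM with Tributyrin, and the groups overlapped through vehicle replicate 1.

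Of the 20 genes of glucose uptake and glycolysis, 19 were tested (*Aldoc* had at most 15 counts), with 11 higher and 8 lower (5 and 14 with library size alone) and a median log2 fold change of 0.02. *Ldha*, the subunit of lactate dehydrogenase that favours lactate production, was highest at 0.12, with 649, 651 and 627 CPM with vehicle and 715, 655 and 728 CPM with Tributyrin. Its groups did not overlap, and neither did those of *Pfkl*, a phosphofructokinase, and *Pkm*, pyruvate kinase, both at 0.08. The gaps between the highest vehicle and the lowest Tributyrin mouse were narrow. They ran from 651 to 655 CPM for *Ldha*, 166.4 to 167.0 CPM for *Pfkl* and 1003 to 1005 CPM for *Pkm*. With library size alone these 3 were at 0.0486, 0.0098 and 0.0105, and their groups overlapped. The phosphofructokinase *Pfkp* did not overlap either and was lower, at -0.11. These are 15.8% of the 19 genes with Tributyrin higher and 5.26% with Tributyrin lower, against 4.34% and 4.61% of all genes tested. *Slc16a3*, the lactate exporter, was lowest at -0.36 with overlapping groups. Of the targets in pH control, the carbonic anhydrase gene *Car12* had 1 count in all and, like *Car9*, was not tested.

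The targets in mitochondria and cell death numbered 8, with 6 higher and 2 lower (5 and 3 with library size alone) and a median log2 fold change of 0.08. They ran from *Cox4i2*, a hypoxia-responsive subunit of cytochrome c oxidase, at -0.13 to *Fam162a* at 0.15, and the mitophagy receptor *Bnip3* was at 0.11. All 8 had 95% intervals that spanned 0.

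The feedback and regulator targets, 14 genes with *Egln3* among them, had 10 higher and 4 lower (4 and 10 with library size alone) and a median log2 fold change of 0.05. *Egln3* was the highest. The lowest was *Bhlhe41*, a transcriptional repressor of the circadian clock, at -0.27 (95% interval -0.52 to -0.0090), with 31.1, 29.99 and 34.6 CPM with vehicle and 30.2, 22.001 and 27.2 CPM with Tributyrin. Its groups overlapped, since Tributyrin replicate 1 lay above vehicle replicate 2.

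Of the 7 targets in matrix and protein folding, 4 were higher and 3 lower (1 and 6 with library size alone). *Loxl2*, a lysyl oxidase that crosslinks collagen, was lowest at -0.57 (standard error 0.12), with 11.9, 15.5 and 12.7 CPM with vehicle and 8.90, 8.996 and 9.31 CPM with Tributyrin. Each Tributyrin mouse lay below each vehicle mouse, but the study had marked *Loxl2* on these same mice, so its direction is no independent evidence. Its adjusted p over all genes was 0.999 by edgeR. *Lox*, another lysyl oxidase, was highest in this list at 0.12 with an interval that spanned 0. Of the iron genes, the transferrin gene *Trf* was at 0.29 and the transferrin receptor gene *Tfrc* at -0.27, with intervals that spanned 0.

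A HIF core stood in the promoter window of most targets that have one. Of the 69 targets, 49 matched a window by symbol, and 37 of these (75.5%) held ACGTG or GCGTG, against 12679 (38.6%) of all 32851 windows. ACGTG was found in 36.7% of the target windows and 16.6% of all windows. The cores can also fall within an E-box, and this share describes the list and not the treatment.

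The genes whose centred log2 CPM lay closest to that of *Egln3* over the 6 libraries, by root mean square difference, were *Gm19522* (0.061), *Gm6560* (0.068), *Gm45012* (0.076), *Fam161a* (0.083) and *Pcdhgb5* (0.085). None of them is a HIF pathway gene on the lists used here, and all had a mean under 6 CPM, where *Egln3* had over 100. *Pcdhgb5* shares exons with other genes of the protocadherin gamma cluster, so its counts are uncertain. Of the hypoxia pathway genes the closest was *Vhl* (0.234), and 7.52% of all genes tested were closer to *Egln3* than it was. *Adm* followed at 0.240, with 9.38% of genes closer, and *Egln1* at 0.246, with 11.4%. *Hif3a* was farthest at 0.678, with 97% of genes closer. The measure runs over the same libraries on which *Egln3* was chosen, and any gene with higher values in the same mice comes close to it.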

How the data were processed

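Ventricle RNA of 3 WD + Tributyrin and 3 WD (vehicle) mice was measured by stranded mRNA sequencing with single-end 50 bp reads. The authors deposited raw counts per Ensembl gene, one table per mouse, without normalization. Before that they trimmed adapters (cutadapt 1.13 per the submitters' processing notes), removed poor and rRNA reads, aligned with STAR to mm10 and counted with HTSeq 0.6.1p1. The sources used here give neither the annotation release nor the strand setting. Lines that name no gene numbered 0. Symbols and positions came from GENCODE M21 (GRCm38), which matched 54165 of 54232 identifiers, and promoter windows came from RefSeq (GRCm38.p6). Where a symbol had several identifiers, the one with the longest exonic length was used.

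Counts were compared with edgeR 4.0.16 (R 4.3.3): TMM scaling, filterByExpr (minimum count 10, minimum total 15), quasi-likelihood test and Benjamini-Hochberg adjustment over 14133 genes, with an FDR threshold of 10% (5% was also counted, and gave 0 genes). Intervals are 95% intervals from the model's degrees of freedom. The fit was tested on simulated data. Samples were grouped by their titles. The titles number the mice and say nothing of batches, and p-values measure the spread between these samples, which may be partly technical. No 2 libraries were duplicates (chi-square per degree of freedom 7.4 to 31.8). Depth was 20369746 to 32734485 counts, and counting noise in a library amounts to no more than 2.17% (relative SD) for *Egln3*, 17.4% for *Hif3a* and 57.7% for *Car9*.

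The genes and lists were chosen with earlier results of these data known, and *Egln3* for its higher level in this contrast. The genes named are the 10 pathway genes, the 5 genes nearest to *Egln3*, and genes of the pathway and target lists. From each such list these are the extremes and any gene at an unadjusted p under 0.05 or with groups that did not overlap. The rule was not applied to the cell type markers. *Myh11*, *Postn*, *Col1a1*, *Nppa*, *Tnnt2*, *Tnni3*, *Actc1*, *Bnip3*, *Hif1an*, *P4htm*, *Arnt*, and list members with few counts were named after their values were seen. Alternatives were DESeq2 1.42.0 and its size factors, library size alone, other low-count filters, limma-voom (limma 3.58.1), the replicate number as a block, and each mouse left out. Covariates for atrial markers and mitochondrial share, and the use of vehicle replicate 3 alone, were added after the data were seen. Figures used Python 3.11.15 with matplotlib 3.10.9. Single values of a few list members are not reported. The other groups of the study were not analysed here.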

Additional observations from a re-analysis of the deposited data

How the results depend on the processing

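*Egln3* stayed higher with Tributyrin under all 16 alternatives, at a log2 fold change of 0.39 (without vehicle replicate 2) to 0.58 (without Tributyrin replicate 3). It was chosen for its rise in these libraries, where its groups did not overlap. Leaving out mice could therefore hardly turn its direction, and the unchanged direction adds no support. *Egln1*, *Hif1a* and *Adm* kept their direction too. *Adm* ran from 0.165 (without Tributyrin replicate 2) to 0.490 (with the mitochondrial covariate). *Egln1* ran from 0.0196 to 0.166 and *Hif1a* from -0.214 to -0.0033. Of the 10 pathway genes, those tested other than *Egln3* had adjusted p-values of 0.579 or more (Benjamini-Hochberg, from the test of each alternative). This holds for every alternative that kept more than 1 mouse per group. Genes past an FDR of 10% numbered 0 with edgeR, 11 with DESeq2 (of 25581 genes) and 0 to 3 with each mouse left out. EdgeR without the low-count filter called 167 of 25581 genes (64 higher, 103 lower). Among them were 2 of 68 targets, *Angptl4* and *Loxl2*. Without the filter the prior degrees of freedom were infinite, against 6.31 with it, so a gene's own spread between mice carried no weight in those calls.

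The median log2 fold change of the 65 targets, 0.014, was -0.0583 with library size alone, -0.0025 with DESeq2 (68 targets), -0.0170 with the atrial covariate, -0.0039 with vehicle replicate 3 alone (its spread assumed equal to that of the others) and -0.0113 to 0.0318 with each mouse left out. With library size alone 18 of the 65 were higher (27.7%, against 27.5% of all genes, whose median was -0.074), and with each mouse left out 31 to 39.

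*Hif3a* turned to -0.0175 with library size alone, -0.143 with limma-voom and -0.0326 with the replicate block, and ran from -0.186 to 0.442 with mice left out. *Vhl* turned to -0.0084 with library size alone and -0.0117 with the mitochondrial covariate, and ran from -0.0200 to 0.137. *Egln2* turned to -0.0061 with the mitochondrial covariate. With mice left out, *Epas1* ran from -0.0639 to 0.0716 and *Vegfa* from -0.121 to 0.0144. The cause of these changes was not tested. Deviations from the group means correlated at 0.21, 0.04 and 0.01 between mice that share a number. No strong pairing was evident, but so few mice cannot exclude one. The replicate block gave 2 genes at 10% and left *Egln3* at 0.47. For *Car9* and *Hif3a* the low counts limit any statement.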

Other observations

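The chromosome around *Egln3* was read after the values were seen. Within 500 kb of the gene, 2 other genes were tested. *Sptssa*, a subunit of serine palmitoyltransferase, lay 441532 bases away, with a log2 fold change of 0.02 (95% interval -0.18 to 0.23). *Eapp*, an E2F-associated phosphoprotein gene, lay 466480 bases away, at 0.08 (95% interval -0.12 to 0.28). Both intervals spanned 0.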
